A study of Mus musculus with 5 samples.

Results

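Interferon-stimulated genes are the transcripts that cells switch on when interferons reach their receptors. Type I and type III interferons act through the kinases Jak1 and Tyk2 and a complex that holds Stat2 and Irf9 and binds the interferon-stimulated response element (ISRE). Interferon gamma acts at the gamma-activated site (GAS) and drives guanylate-binding GTPases and antigen presentation. The products cut or bind foreign RNA, restrict viral entry and release, and load peptides for immune surveillance, and in uninfected tissue they are usually kept at a low basal level.

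A list of 47 such mouse genes was matched by symbol to the probe sets of the array. Of these, 40 were measured on probe sets annotated to that gene alone, among 19938 genes measured in all. A further 6 (Oas1g, Isg15, Gbp2, Gbp6, Igtp and Irgm2) lay only on probe sets that also carry the symbol of a close relative or another gene, and the probe sets named here held no entry for Ifi44. The intensities of those 7 were not analysed here. Nothing measured in these mice entered the choice of the rule, which goes by gene symbol, although earlier results of these data were known when the list was drawn up.

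The RNA came from whole pancreas of 3 Pdx1cKO and 2 control mice at postnatal day 1, with 1 array (Mouse Gene 1.0 ST) for each, and the series title places both genotypes in the same litter. Pdx1cKO mice are Elastase-Cre;Pdx1loxP/loxP, so Pdx1, a homeobox gene needed to form the pancreas, was inactivated in exocrine cells, and the study's text notes that proximal ducts escape recombination. The labels call the controls not recombined and do not give their Cre or loxP alleles, the strain or the sex. Values are normalized intensities on a linear scale, which have no unit, and log2 fold changes are Pdx1cKO minus control.

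Pdx1 itself had intensities of 48.4, 48.4 and 42.9 in Pdx1cKO mice 1, 2 and 3, against 67.9 and 112.7 in controls 1 and 2 (log2 fold change -0.91, limma adjusted p = 0.385). Without control 1 it was -1.28 and passed (limma adjusted p = 0.0242), and without control 2 it was -0.55 and did not (0.101). The tissue carried pancreatic transcripts in both groups, at lower levels in Pdx1cKO. The acinar carboxypeptidase Cpa1 lay at 1583 to 3255 in Pdx1cKO and 8231 to 10406 in controls. The median intensity of 9 acinar markers, Cpa1 among them, was 79.8 to 163 in Pdx1cKO and 2013 to 5978 in controls. All 9, and all 6 islet markers measured, lay below both controls, against 11.7% of all genes. The samples also carried other tissues. Of 11 stomach markers, 9 were more than 1 log2 higher in control 2 than on every other array, as were 5 of 11 intestinal markers. The median intensity of 10 liver markers was 989 to 3701 in Pdx1cKO and 201 to 244 in controls, and that of 10 granulocyte and myeloid progenitor markers was 141 to 424 in Pdx1cKO and 49.6 to 55.4 in controls. In whole tissue, fewer cells of a type and less RNA per cell cannot be told apart.

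The members share promoter letters that the rule did not use. RefSeq promoter windows (GRCm38.p6, from 250 bases before each gene's start to 50 after) matched 34 of the 47 members. The ISRE core, GAAA and GAAA with any 2 bases between them (NN), searched on both strands, was present in 20 of these 34 (58.8%), against 3.99% of all 27025 genes with a window, and in 15 of the 28 that were also measured (53.6%). The GAS core TTCNNNGAA, which reads the same on both strands, was present in 14 of 34 (41.2%), against 9.55% of all genes. A match describes the letters and does not show binding. The windows below were chosen because Rsad2, Irf8 and Isg20 had the largest positive fold changes among the members, while Ifit1, Ifit3 and Gbp7 carry the ISRE core and had groups that overlapped. Capitals mark the ISRE core in the first 4 sequences and the GAS core in the last 2, each given 5′ to 3′ along the gene's strand and ending before the start.
Rsad2 (chr12:26456533-26456602, minus strand): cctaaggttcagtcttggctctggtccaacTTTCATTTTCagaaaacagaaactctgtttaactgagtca
Ifit1 (chr19:34640755-34640843, plus strand): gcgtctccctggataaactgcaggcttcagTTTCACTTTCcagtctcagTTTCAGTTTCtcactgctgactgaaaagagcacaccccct
Ifit3 (chr19:34583343-34583446, plus strand): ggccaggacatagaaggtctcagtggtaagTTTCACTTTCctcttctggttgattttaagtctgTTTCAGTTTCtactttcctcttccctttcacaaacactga
Gbp7 (chr3:142530253-142530322, plus strand): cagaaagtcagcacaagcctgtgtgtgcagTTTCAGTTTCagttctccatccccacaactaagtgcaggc
Irf8 (chr8:120736157-120736243, plus strand): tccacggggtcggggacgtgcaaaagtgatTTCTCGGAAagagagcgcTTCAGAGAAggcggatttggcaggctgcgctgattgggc
Isg20 (chr7:78913321-78913389, plus strand): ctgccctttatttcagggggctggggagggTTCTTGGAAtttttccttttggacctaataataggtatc
The Rsad2 core lies 120 to 111 bases before the start. Ifit1 and Ifit3 hold 2 cores each, the Ifit1 pair between 104 and 76 bases before the start. The promoters of Oasl1 and Oasl2, which had the lowest fold changes, held neither core in this window.

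As a group the interferon-stimulated genes differed little between the genotypes. The median log2 fold change of the 40 members was 0.013, against -0.0012 over all genes, and with each array scaled to the same median it was -0.013, the opposite sign. Members with a positive and a negative fold change numbered 23 and 17. The fold change was smaller than 0.25 on the log2 scale in 33 of the 40 (82.5%), against 82.9% of all genes, and it reached 1 in 1 member (2.50%), against 2.26% of all genes. For 37 of the 40 (92.5%), the 95% interval lay within a 2-fold change in either direction, against 90.6% of all genes. The interval reached past that for Rsad2, Oasl1 and Isg20.

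By limma with Benjamini-Hochberg adjustment over all genes, 0 members were called lower and 0 higher at an adjusted p of 0.05, as for all genes (0.0% in each direction). At an unadjusted limma p under 0.05, 1 member was lower, against a background of 5.04% of all genes, and 2 were higher, against 5.29%. In either direction that was 3 members (7.50%), against 10.3% of all genes. By the methods' t-test, adjusted likewise, 0 members passed, against 0.0351% of all genes lower and 0.015% higher. The median SD of log2 values over the members was 0.0497 in Pdx1cKO (n = 3) and 0.137 in controls (n = 2), against 0.0396 and 0.0738 over all genes. With 2 animals against 3, no exact permutation test can go below 0.1.

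Every Pdx1cKO array lay above both controls in 4 members, against 12.0% of all genes, and below both in 2, against 11.7%. The 6 members whose groups did not overlap make 15.0% of the list, against 23.7% of all genes. They were Rsad2, Irf8, Isg20 and Ifi27 on the higher side and Oasl2 and Oas2 on the lower side.

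**Figure D1:**
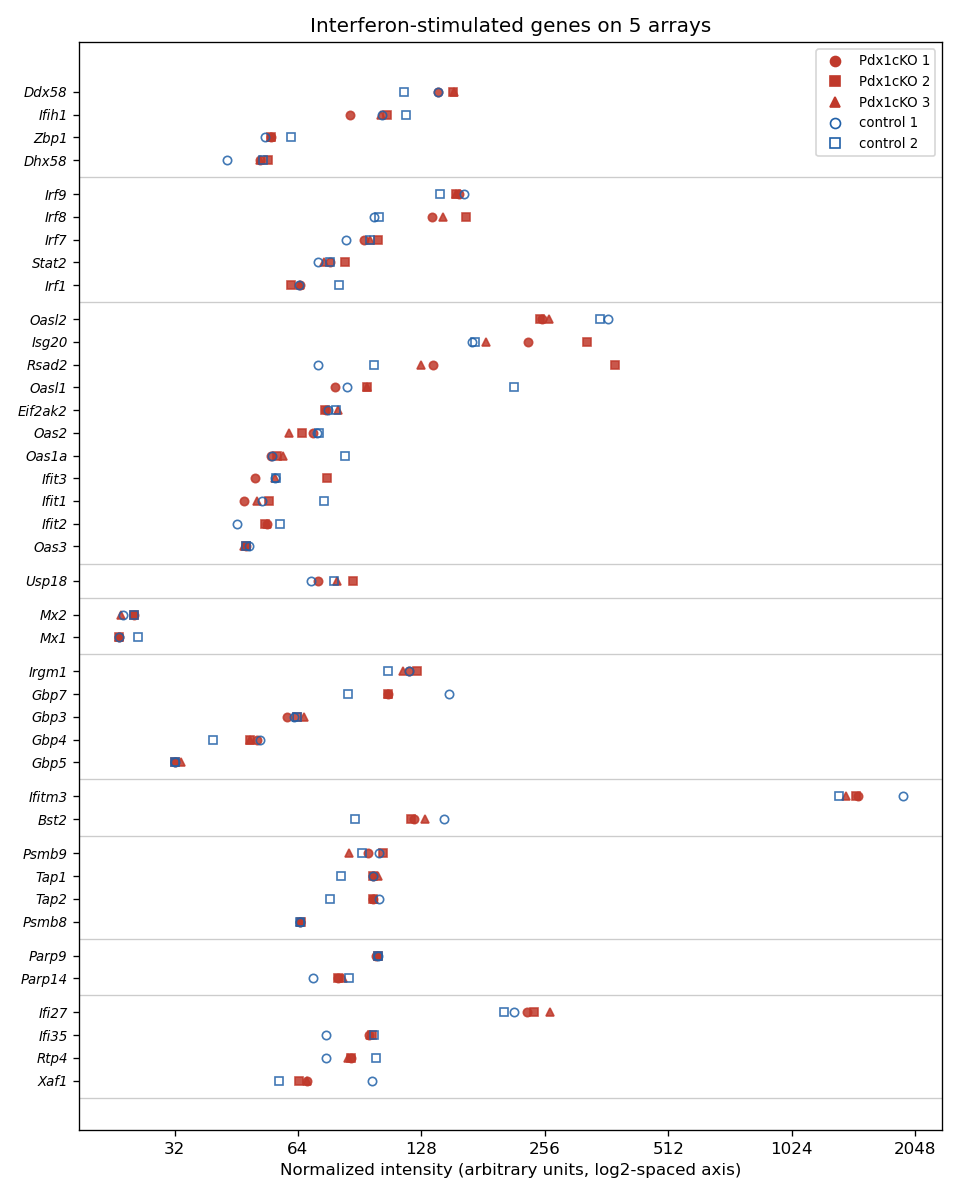
Normalized intensity (arbitrary units, log2-spaced axis) of the 40 measured interferon-stimulated genes on each array, in blocks by role (filled red, the 3 Pdx1cKO mice; open blue, the 2 controls; the shape gives the replicate). For 26 of the 40 the mean is under 100, Ifitm3 stands alone at 1336 to 1910, and Mx1 and Mx2 lie lowest.

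Most members were dim. The median of their mean intensities was 82.5, against 72.0 for all genes, with 24 of the 40 above the median gene and 4 averaging over 200. The arrays come without detection calls, so which of the dim members lay above background is unknown. Identical values on 2 or more arrays were held by 24 of the 40 members (60.0%), against 66.0% of all genes. Psmb8, an immunoproteasome subunit, was at 64.6 on 4 arrays and at 65.0 in Pdx1cKO mouse 2, and Parp9 lay between 99.3 and 100.4 on all 5. Mx1 and Mx2, dynamin-like GTPases that trap viral particles, were the dimmest, and Mx1 lay at 23.4 in all 3 Pdx1cKO mice and in control 1 and at 26.0 in control 2.

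Ifitm3, a membrane protein that blocks the fusion of viruses with endosomes, was the brightest member (probe set 10569017). It had 1486, 1470 and 1390 in Pdx1cKO mice, against 1910 and 1336 in controls 1 and 2. All 3 Pdx1cKO values lay between the controls, and the log2 fold change was -0.14 (standard error 0.177, limma adjusted p = 0.681). It was 0.12 without control 1 and -0.40 without control 2. Bst2, or tetherin, which holds budding virus at the cell surface, was arranged in the same way, with 123, 121 and 130 in Pdx1cKO and 145 and 88.1 in controls.

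Rsad2, which encodes viperin, an enzyme that makes a chain-terminating nucleotide against viral polymerases, had the largest fold change of the list (probe set 10399710). Its intensities were 136, 379 and 128 in Pdx1cKO mice 1, 2 and 3, against 71.6 and 98.1 in controls 1 and 2. All 3 Pdx1cKO values lay above both controls, but Pdx1cKO mouse 2 stood far above the other two. The log2 fold change was 1.16, or 2.24-fold, with a standard error of 0.611 and a limma adjusted p of 0.515. Without Pdx1cKO mouse 2 it was 0.66, and against control 1 or control 2 alone it was 1.39 and 0.94.

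Isg20, an exonuclease that degrades single-stranded RNA, followed the same order among the Pdx1cKO mice (probe set 10554240). It had 233, 325 and 184 there, against 170 and 173 in controls, so Pdx1cKO mouse 3 lay close to the controls. The log2 fold change was 0.49 (standard error 0.277, limma adjusted p = 0.515) and 0.27 without Pdx1cKO mouse 2. The markers of granulocytes and myeloid progenitors were also highest in Pdx1cKO mouse 2 and lowest of the Pdx1cKO mice in mouse 3, with medians of 253, 424 and 141 in mice 1, 2 and 3, against 49.6 and 55.4 in controls. Liver markers had the same order, with medians of 2701, 3701 and 989 in Pdx1cKO and 201 and 244 in controls. Their part in the Rsad2 and Isg20 values was not tested.

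Pdx1cKO mouse 2 had the single highest value in 11 of the 40 members (27.5%), against 13.8% of all genes. Besides Rsad2, Isg20 and Irf8 these included Ifit3, which binds viral RNA together with Ifit1. It was at 50.1, 75.5 and 56.3 in Pdx1cKO mice and 56.3 and 56.6 in controls. The 11 also included Usp18, the protease that removes Isg15 from its targets. Usp18 was at 71.5, 87.1 and 79.8 in Pdx1cKO and 69.0 and 78.3 in controls. Pdx1cKO mouse 1 was the single highest in 0 members, against 8.11% of all genes. Outside the list, Iigp1, an immunity-related GTPase chosen after its values were seen, was at 56.6, 113 and 56.6 in Pdx1cKO and 56.6 and 42.0 in controls.

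**Figure D2:**
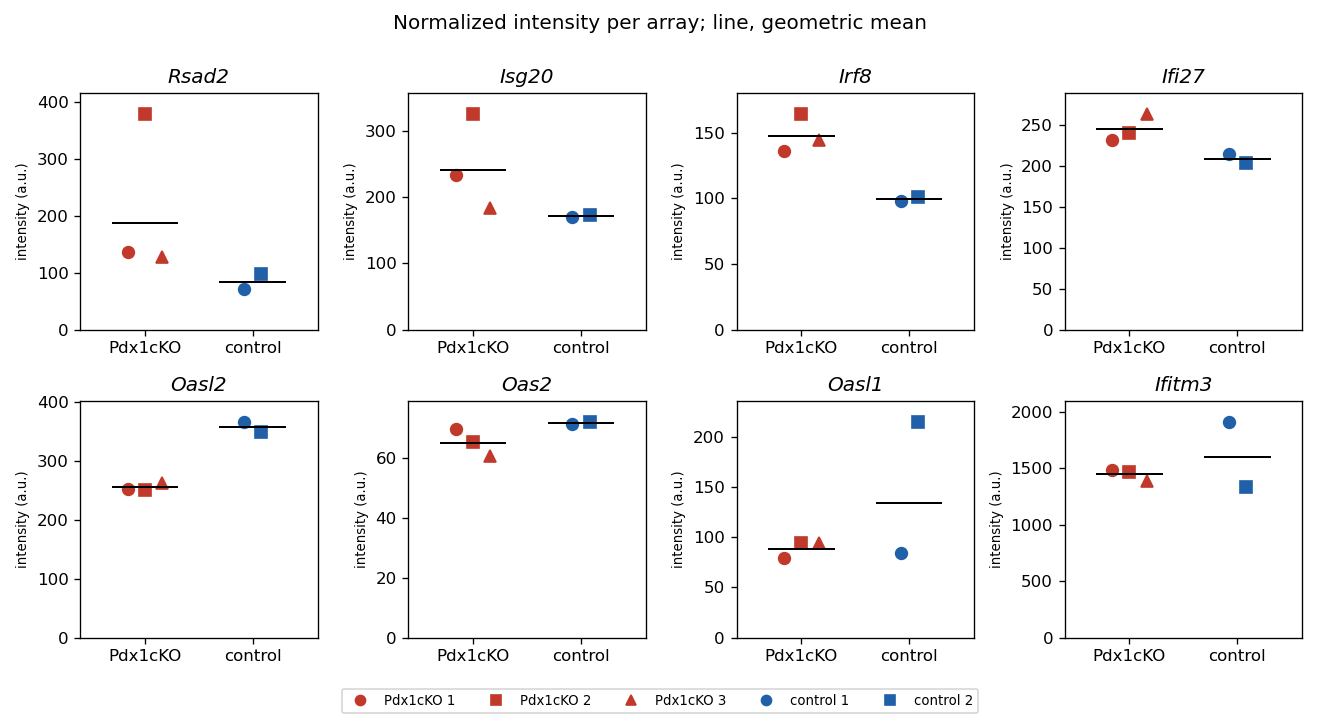
Normalized intensity (arbitrary units, axis from 0) of 8 members on each array, with Pdx1cKO in red, controls in blue, the shape giving the replicate and the line the geometric mean. Rsad2 is carried by Pdx1cKO mouse 2 at 379, Oasl1 by control 2 at 215, and Irf8 and Oasl2 separate the groups. Among the Pdx1cKO mice the SD is 0.139 log2 for Irf8 and 0.0396 for Oasl2.

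Among the transcription factors, Irf8 differed most (probe set 10576034). Irf8 directs the development of dendritic cells, monocytes and B cells, besides its induction by interferon gamma. It was at 136, 164 and 144 in Pdx1cKO mice, against 98.1 and 101 in controls. The groups did not overlap, the log2 fold change was 0.57 (standard error 0.0949, 95% interval 0.29 to 0.84), and the unadjusted limma p was 0.0051, with an adjusted p of 0.240. Its fold change was 0.59 against control 1 and 0.55 against control 2, and across every alternative it ran from 0.49 to 0.63, with an adjusted p of 0.148 to 0.925.

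Markers of blood cell types differed in their values. The 10 macrophage markers had a median log2 fold change of -0.045, and the 7 dendritic cell markers had 0.0054. In each of these lists 1 marker lay above both controls, against 12.0% of all genes. Siglech and Clec9a, defining markers of plasmacytoid and conventional dendritic cells, lay at 42.8 to 44.8 and 21.5 in Pdx1cKO and 42.9 to 43.7 and 21.5 to 22.5 in controls. Of the 6 B cell markers measured, 5 lay above both controls, against 12.0% of all genes, with a median of 0.53. All 10 granulocyte and myeloid progenitor markers lay above both controls, with a median of 2.29. Summed over the lists, B cell markers reached 387 to 532 in Pdx1cKO and 253 to 256 in controls, and the part of these cells in the Irf8 values was not tested.

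The other factors of the pathway lay close together. Irf7, which amplifies type I interferon production, had 93.0, 100.3 and 95.8 in Pdx1cKO and 83.9 and 95.8 in controls. Stat2 had 76.5, 83.3 and 74.2 in Pdx1cKO and 71.7 and 76.5 in controls, and Irf9, its DNA-binding partner, had 158, 156 and 156 in Pdx1cKO and 162 and 142 in controls. Irf1, which responds to interferon gamma, had a log2 fold change of -0.18. Its 2 probe sets differed, with -0.34 on the brighter and -0.018 on the dimmer.

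Oasl2, a member of the oligoadenylate synthetase family, had the smallest p of the list (probe set 10524621). It was at 252, 249 and 263 in Pdx1cKO mice, against 365 and 349 in controls, and the gap between the groups was wider than the spread within either. The log2 fold change was -0.49, or 1.40-fold lower in Pdx1cKO, with a standard error of 0.0357 and a 95% interval of -0.59 to -0.39. The unadjusted limma p was 2.73e-04 and the adjusted p over all genes 0.170. Across the alternatives the fold change ran from -0.53 to -0.46 and the adjusted p from 0.0244 to 0.925. It passed without control 1 (adjusted p = 0.0295) and without control 2 (0.0244), where limma assumes the lone control to vary like the Pdx1cKO mice.

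Oas2, Oas3, Oas1a and Oasl1, its measured relatives, also had negative log2 fold changes. Against control 1 alone, however, Oas1a was at 0.037 and Oasl1 at 0.073. Oas2, which makes the oligoadenylates that switch on RNase L, was at 69.8, 65.3 and 60.8 in Pdx1cKO and 71.4 and 72.1 in controls (log2 fold change -0.14, standard error 0.0675, limma adjusted p = 0.515), and the fold change was -0.087 without Pdx1cKO mouse 3. Oas3 lay at 47.3 to 47.9 in Pdx1cKO and 47.9 to 48.7 in controls (log2 fold change -0.019). Oas1a had 55.0, 57.0 and 58.7 in Pdx1cKO, against 55.4 in control 1 and 83.3 in control 2 (log2 fold change -0.26).

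Oasl1, which in the mouse restrains the translation of Irf7, followed control 2 alone (probe set 10524631). It had 78.9, 94.2 and 94.2 in Pdx1cKO mice, against 84.4 in control 1 and 215 in control 2. The log2 fold change was -0.60 (standard error 0.464, limma adjusted p = 0.527), but 0.073 without control 2 and -1.28 without control 1, where it passed (adjusted p = 0.0468). No other member in control 2 exceeded every remaining array by more than 1 log2, and control 2 is the array with stomach and intestinal transcripts. For scale, the stomach gene Gkn2 lay at 25.1 to 26.4 in Pdx1cKO, at 26.4 in control 1 and at 3014 in control 2. Whether gut epithelium added to the Oasl1 signal was not tested.

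The RNA sensors, which start the interferon response, overlapped between the groups in all 4 cases. Over all genes, the groups did not overlap in 23.7%. Ifih1 (MDA5) had 85.7, 105 and 102 in Pdx1cKO and 103 and 118 in controls, and Ddx58 (RIG-I) had 140, 153 and 154 in Pdx1cKO and 140 and 116 in controls. Dhx58, their regulator, and Zbp1, a sensor of left-handed nucleic acid, had log2 fold changes of 0.14 and -0.054. Eif2ak2, the kinase PKR that halts translation on double-stranded RNA, was at 74.9, 74.3 and 80.2 in Pdx1cKO and 75.8 and 79.3 in controls.

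Among the GTPases induced by interferon gamma, 0 of the 5 measured separated the groups, against 23.7% of all genes. Their log2 fold changes ran from -0.084 to 0.13. Gbp7 was the clearest case of disagreement between controls, at 106 in each of the 3 Pdx1cKO mice, against 149 in control 1 and 84.8 in control 2. Irgm1, which acts in autophagy of intracellular microbes, lay at 115 to 125 in Pdx1cKO and 106 to 119 in controls. The 4 antigen-processing members, the immunoproteasome subunits Psmb8 and Psmb9 and the peptide transporters Tap1 and Tap2, had log2 fold changes of -0.030 to 0.16, and the groups overlapped in each. Psmb9 spread most among the Pdx1cKO mice, at 94.9, 103 and 85.3, against 101 and 91.5 in controls.

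Of the remaining interferon-induced members, Ifi27, a small membrane protein, was higher in all 3 Pdx1cKO mice (probe set 10397975). It had 232, 241 and 264 there, against 215 and 204 in controls (log2 fold change 0.23, standard error 0.0698, limma adjusted p = 0.426). Xaf1, which promotes apoptosis, was at 67.4, 64.5 and 67.4 in Pdx1cKO, against 96.9 in control 1 and 57.5 in control 2. Rtp4, Ifi35 and Parp14 likewise had all Pdx1cKO values between those of the controls, at log2 fold changes of -0.0042, 0.16 and 0.068.

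**Figure D3:**
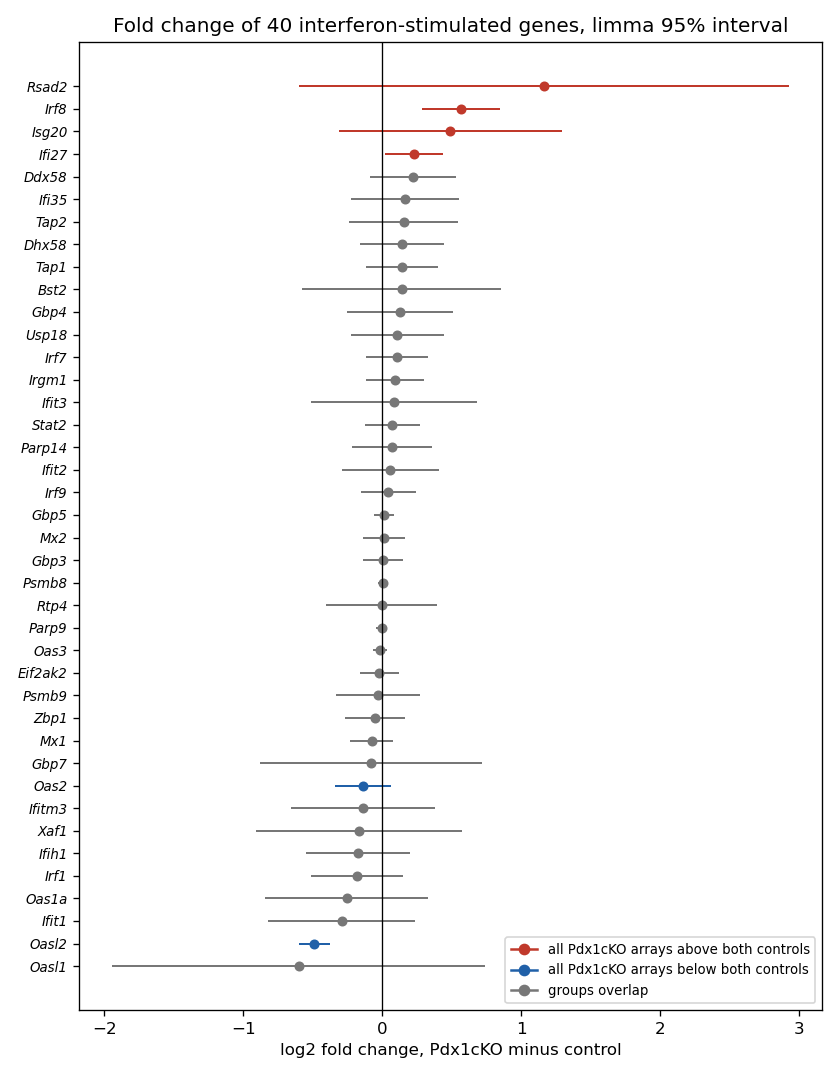
Log2 fold change, Pdx1cKO minus control, of each of the 40 members with its limma 95% interval (red, all Pdx1cKO arrays above both controls; blue, all below; grey, groups overlap). Irf8, Ifi27 and Oasl2 have intervals clear of 0, and the widest intervals belong to Rsad2 and Oasl1.

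Because control 2 carried gut transcripts, each control was also taken alone. The Pdx1cKO mean differed from control 1 and from control 2 in the same direction in 21 of the 40 members, against 14241 of the 19938 genes. That count over all genes includes genes such as Ifna4, with identical values on all 5 arrays, which show no direction. The median difference was 0.013 from control 1 and 0.0054 from control 2, and control 2 was strictly the highest or lowest array in 23 members (57.5%), against 48.0% of all genes. The controls lay a median of 0.194 log2 apart over the members and 0.104 over all genes.

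Members that were high in control 2 included Oasl1, Oas1a and Ifit1, the last at 47.3, 54.5 and 50.8 in Pdx1cKO, 52.4 in control 1 and 73.9 in control 2. Members that were low in control 2 and high in control 1 included Gbp7, Xaf1, Bst2 and Ifitm3. Leaving out control 2 called 5 members higher, against 4.99% of all genes, and 3 lower, against 10.4%. Leaving out control 1 called 6 higher, against 8.04%, and 7 lower, against 8.94%. Oasl2 kept its direction, at -0.52 without control 2 and -0.46 without control 1. Gbp7 was at -0.49 without control 2 and 0.32 without control 1, and Ifit2, Rtp4 and Zbp1 also turned.

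**Figure D4:**
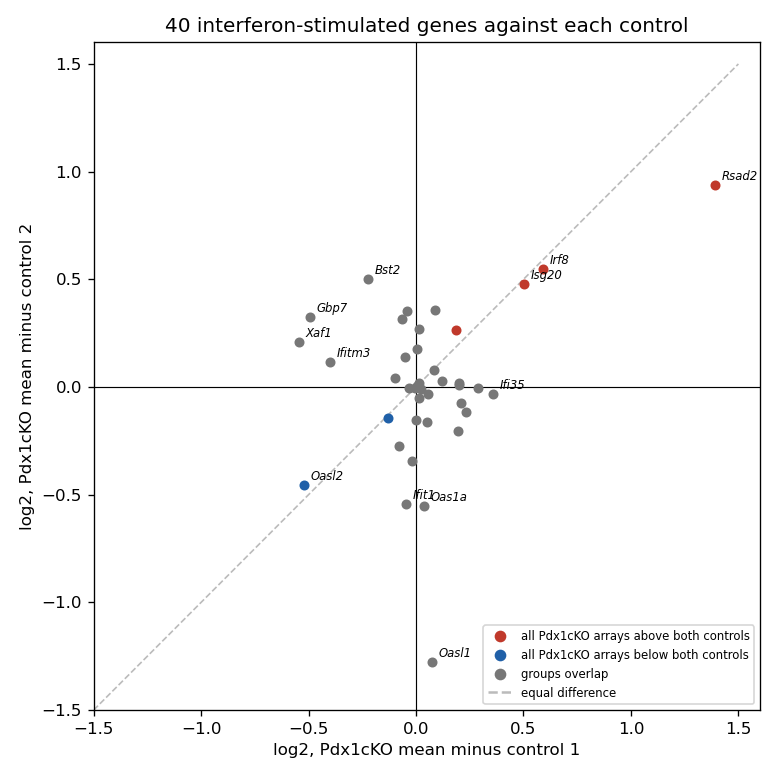
Difference of the Pdx1cKO mean from control 1 (x axis, log2) against its difference from control 2 (y axis, log2), 1 point per member (red, all Pdx1cKO arrays above both controls; blue, all below; grey, groups overlap; dashed, equal difference). Irf8, Isg20 and Oasl2 lie near the dashed line and Rsad2 far to the upper right, whereas Oasl1 lies at 0.073 and -1.28 and Gbp7 at -0.49 and 0.32.

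The other parts of the pathway, taken from lists drawn up in the same way, had median log2 fold changes near 0, apart from class II presentation. Of 16 interferon genes measured, 3 lay below both controls, against 11.7% of all genes, and 1 above, against 12.0%. Their median log2 fold change was -0.026, and intensities ran from 21.0 to 94.1. Ifnb1 was at 26.7, 29.4 and 29.4 in Pdx1cKO and 29.4 and 30.7 in controls, and Ifng at 29.6 in all 3 Pdx1cKO mice and in control 2. The ligand genes with the smallest p, Ifna5 and Ifna2, had fold changes of -0.30 and -0.27 (limma adjusted p = 0.284 and 0.411), although alpha interferon genes are near copies that probes may not separate.

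The 6 receptors were brighter and had a median of 0.052, with 2 above both controls and 1 below, against 12.0% and 11.7% of all genes. Ifnar2, a chain of the type I receptor, was at 367, 382 and 345 in Pdx1cKO and 321 and 205 in controls (log2 fold change 0.51, limma adjusted p = 0.515). It was 0.83 without control 1, where it passed (adjusted p = 0.0305), and 0.18 without control 2, where it did not (0.321). Il10rb, shared by the receptors for interferon lambda and interleukin 10, was at 200, 214 and 210 in Pdx1cKO and 266 and 239 in controls (-0.28, limma adjusted p = 0.317). Jak1, the kinase common to all interferon receptors, was at 642, 704 and 713 in Pdx1cKO and 602 and 510 in controls (0.31, limma adjusted p = 0.441), and at 0.19 without control 2. Tyk2 lay at -0.037, or 0.022 without control 2 and -0.096 without control 1. Myd88 and Irf3, which relay signals from sensors, were below both controls, at -0.24 and -0.11. Myd88 was at -0.13 without control 1, and Irf3 at -0.075 without Pdx1cKO mouse 3. The 8 negative regulators had a median of 0.087, with 4 above both controls and 1 below, against 12.0% and 11.7% of all genes. Of these, Irf2, which competes with Irf1, was at -0.16, or -0.081 without control 1 and -0.24 without control 2. Trex1, the nuclease that removes cytosolic DNA, was at 0.086, or 0.14 without control 1 and 0.026 without control 2.

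Class I presentation had a median of 0.0079 over 7 genes, with B2m, the light chain of class I molecules, at 0.19 (0.12 without Pdx1cKO mouse 2) and the immunoproteasome subunit Psmb10 at -0.24. Class II presentation had the largest median of the pathway lists, at 0.84, but the controls differed, and the median was 0.50 against control 1 alone and 1.12 against control 2 alone. Of its 6 genes, 5 lay above both controls, against 12.0% of all genes, and 0 passed limma's adjusted p. H2-Ab1 had 192, 209 and 237 in Pdx1cKO and 121 and 104 in controls (log2 fold change 0.92, standard error 0.128, limma adjusted p = 0.225). H2-Aa had 247, 268 and 222 in Pdx1cKO and 132 and 68.5 in controls (1.37, limma adjusted p = 0.342). Without control 1 it was 1.84 and passed (adjusted p = 0.0223), and without control 2 it was 0.89 and did not (0.0781). Ciita, the class II transactivator that interferon gamma induces, lay between 34.5 and 34.6 on all arrays. Class II molecules are made by B cells and other presenting cells, also without interferon. Neither the part of the cells behind the B cell markers above nor that of interferon gamma was tested.

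The 29 further interferon-induced genes had a median of 0.030, with 3 above both controls, against 12.0% of all genes, and 3 below, against 11.7%. Ccl5, a chemokine, was at 89.9, 96.1 and 88.9 in Pdx1cKO and 71.5 and 64.1 in controls (log2 fold change 0.44, limma adjusted p = 0.236). It passed without control 1 (0.52, adjusted p = 0.0486) and not without control 2 (0.36, adjusted p = 0.0929). Trim25, the ubiquitin ligase that activates RIG-I, was at 165, 167 and 168 in Pdx1cKO and 176 and 182 in controls (-0.11, limma adjusted p = 0.286). It likewise passed without control 1 (-0.13, adjusted p = 0.0379) and not without control 2 (-0.081, adjusted p = 0.0872). Chosen after its values were seen, Lgals3bp, a secreted galectin-binding glycoprotein, had 289, 379 and 275 in Pdx1cKO and 630 and 1064 in controls (-1.40 on the log2 scale, limma adjusted p = 0.309).

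**Figure D5:**
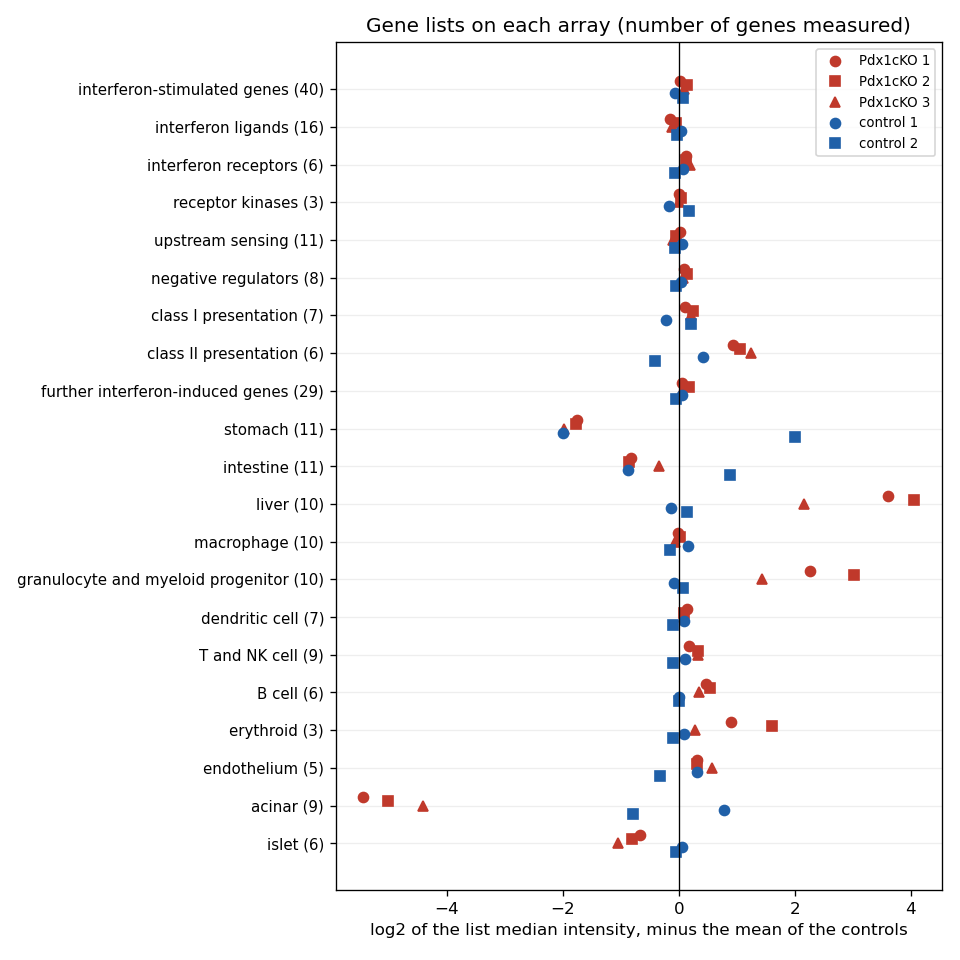
Log2 of each list's median intensity on each array, minus the mean of the controls (red, Pdx1cKO; blue, controls; the shape gives the replicate; the number of genes measured is in brackets). The 40 interferon-stimulated genes lie between -0.069 and 0.14 on every array, class II presentation lies to the right in all 3 Pdx1cKO mice, and the stomach and intestine lists are high in control 2.

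The 15 measured members with an ISRE core had a median log2 fold change of 0.0059 and ran from -0.29 to 1.16, with 1 above both controls and 0 below. The 13 with a window and no ISRE core had a median of 0.044 and ran from -0.60 to 0.57, with 2 above both controls and 1 below. Over all genes, 12.0% lay above both controls and 11.7% below.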

How the data were processed

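RNA from whole pancreas was hybridised by the authors to Mouse Gene 1.0 ST arrays and analysed in GeneSpring GX. The authors deposited 1 linear intensity per array for each of 28853 probe sets. Array medians were 61.0 to 61.9, so the values appear normalized between arrays, but how (background, scaling, probe summary) is not given in the sources used here. Log2 was taken with no pseudocount. Gene symbols came from the platform annotation: 21789 probe sets with 1 symbol were averaged into 19938 genes, and 1621 with several and 5443 unnamed here were left out.

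Pdx1cKO (n = 3) was compared with control (n = 2) in R 4.3.3 with limma 3.58.1 (lmFit, eBayes, Benjamini-Hochberg over all genes), tested on simulated data in which 67.2% of genes changed by a log2 of 1 and 98.5% of those changed by 4 were recovered. The simulation drew independent normal noise for each gene, so its recovery may not carry over to these arrays. In the data, 450 of 19938 genes (2.26%) had an absolute log2 fold change of 1 or more, and 0 genes passed the adjusted p. The number of arrays limits precision. Genes were named by a rule: the largest differences without overlap, largest range, highest level and smallest p among members, and the 2 smallest p in each pathway list. Members and lists were chosen with earlier results of these data known. Alternatives were median scaling, quantile normalization, a filter at the median level, the brightest or each probe set, trend and robust eBayes, array weights, the methods' t-test, a replicate block and leaving out each array. Promoters came from RefSeq (GRCm38.p6), searched in Python 3.11.15 (pandas 2.3.3).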

Additional observations from a re-analysis of the deposited data

How the results depend on the processing

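Outside the arrays left out, the median fold change of the members stayed between -0.013 and 0.082 and 0 members passed an adjusted p. Over all genes at an adjusted p, 7 genes were lower and 3 higher by the methods' t-test, and leaving out 1 array 0 to 2072 lower and 0 to 1604 higher. At an unadjusted p, genes lower numbered 501 among genes above the median level (fewer tested), 391 with array weights, 605 with the replicate block and 638 to 3694 with 1 array left out. Genes higher numbered 241 with array weights and 711 to 2958 with 1 array left out.

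With 1 array left out, members called at an adjusted p numbered 0 to 7 lower and 0 to 6 higher, all without a control, and at an unadjusted p 1 to 9 in each direction. Members higher at an unadjusted p numbered 1 with quantile normalization, 0 with array weights, 1 with the replicate block and 1 by the methods' t-test. Members below both controls numbered 8 with median scaling, where values tied between arrays are pulled apart, 6 with quantile normalization, 1 above the median level and 2 to 13 with 1 array left out, and members above both controls 4 to 14. The share over all genes was counted only in the main setting (11.7% below and 12.0% above). Under the alternatives these counts therefore have no background and say nothing particular to the members. Sign changes among named genes came with a control left out: Oasl1 ran from -1.28 without control 1 to 0.073 without control 2, Tyk2 from -0.096 to 0.022 in the same order, and Ifitm3 was 0.12 without control 1 and -0.40 without control 2. Other causes were not tested.

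The replicate numbers are shared between groups, but deviations of same-numbered arrays correlated at only 0.033 and -0.0030, which gives no basis for pairing arrays by number, and the replicate block called 0 genes at an adjusted p.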
